A study of Mus musculus with 15 samples.

Results

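The genes described here are 10 that mark Cajal-Retzius cells or carry the reelin signal, namely Reln, Trp73, Lhx5, Calb2, Ndnf, Dab1, Lrp8, Vldlr, Cxcr4 and Nhlh2. They were chosen by name, and they are 10 of the 53337 genes obtained when transcript values were summed to genes. Expression was measured by stranded mRNA sequencing of dorsal forebrain from C57BL/6J mouse fetuses at embryonic day 18. Dams received arginine vasopressin (AVP), which is used to model preeclampsia in mice, or saline (the labels' vehicle) from subcutaneous pumps. There were 4 AVP male, 4 saline male, 3 AVP female and 4 saline female libraries from 8 litters, 15 in all. The labels do not tie a library to its litter. The study states that within a group each animal came from its own litter. With 15 libraries from 8 litters, some male and female libraries therefore share a dam. The p-values below measure the spread between libraries. Those over both sexes, of the interaction and of the correlations treat libraries that share a dam as independent. Values are TPM, that is transcripts per 1000000, relative to transcript length and to the total of the library. TPM hold no read counts, so the depth of a single library is not known from the files. In whole tissue, fewer cells of a type and less RNA per cell cannot be told apart.

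Cajal-Retzius cells are early-born neurons of the cortical marginal zone that arise from the cortical hem and other borders of the pallium and secrete reelin. Reelin binds the lipoprotein receptors Apoer2, encoded by Lrp8, and Vldlr on radially migrating neurons, and the adaptor Dab1 is phosphorylated at their cytoplasmic tails. Loss of the ligand, of both receptors or of the adaptor inverts the cortical layers. Trp73, a relative of the p53 tumour suppressor, and the LIM homeobox gene Lhx5 are expressed by Cajal-Retzius cells, and the chemokine receptor Cxcr4 holds these cells beneath the meninges, which release its ligand Cxcl12. Calb2 (calretinin), Ndnf, Nhlh2 and Reln itself are also expressed by other neurons, among them interneurons and cells of the olfactory bulb.

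Some libraries stood apart in ways that touch these genes. In 14 of the 15 libraries the sex-linked transcripts were those of the labelled sex. Saline male 3, so labelled, held 265.7 TPM of Xist and a sum of 0.489 TPM over 4 Y-linked genes, against at most 1.13 TPM of Xist and at least 102.0 TPM of the Y-linked genes in the other male libraries. AVP female 2 and saline female 4 held transcripts of olfactory bulb mitral cells. Cdhr1, which is expressed by mitral and tufted cells, measured 71.5 and 60.1 TPM in these libraries and at no more than 1.27 TPM in the other 13, and Tbx21 was at 4.31 and 2.92 TPM against no more than 0.248. Lbhd2, also of the mitral cell list, was at 4.625 and 3.782 TPM against no more than 0.5732. Doc2g, the most abundant gene of that list, hardly set them apart, at 22.94 and 23.91 TPM against 5.325 to 22.91. Values without these libraries are given beside some of the differences and counts of these genes. The library numbers in the labels form 2 runs, of 7 and 8 libraries, and the labels do not say what separates them.

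Reln (chr5:21884454-22344702, minus strand, GRCm38) encodes the ligand, and its summed TPM was assigned mostly to annotated transcripts that do not encode the full protein. Reln-207, the coding transcript of 11699 nt, was at 19.3 ± 4.78 TPM (SD, n = 15 libraries). Reln-205, an 891 nt transcript with no coding sequence inside the gene, was at 32.3 ± 12.4 TPM, and Reln-203, a retained-intron transcript of 2775 nt, at 16.2 ± 3.57 TPM. Reln-207 thus held 26.3% of the summed TPM, but 73.6% once each transcript was multiplied by its length. Reln-205 (chr5:21884895-21896068) and Reln-203 (chr5:21898724-21932719) lie at the downstream end of the gene, within the span of Reln-207. The split of reads between such overlapping transcripts is an estimate and was not tested. Reln-205 also followed the run of library numbers. It lay between 12.7 and 29.6 TPM in the 7 libraries of the first run and between 28.6 and 55.2 TPM in the 8 of the second, whereas Reln-207 ranged from 14.3 to 30.2 and from 14.6 to 27.5 TPM. The sum for the gene ranged from 52.2 to 70.8 TPM in the first run and from 59.8 to 106.6 TPM in the second.

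**Figure D1:**
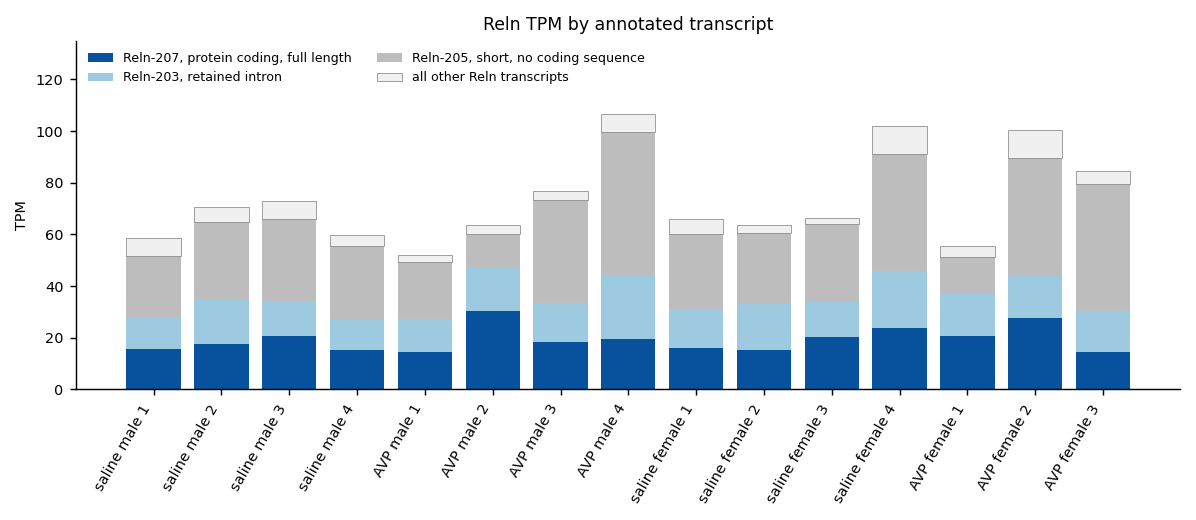
Stacked bars give the TPM of Reln transcripts in each of the 15 libraries, split into the full-length coding transcript, a retained-intron transcript, a short transcript without coding sequence and all others. The dark blue coding part lies between 14.3 and 30.2 TPM, and the grey short transcript, between 12.7 and 55.2 TPM, has the widest range of the 3 named transcripts.

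Trp73 (chr4:154056253-154140208, minus strand) has an upstream start, from which full-length p73 is made, and a start inside the gene, from which the amino-terminally truncated (delta N) form is made. Trp73-205, which begins at the internal start, held 84.6% of Trp73 TPM, at 3.68 ± 1.06 TPM. Trp73-204, which begins upstream, was at 0.410 ± 0.283 TPM and was listed at or near 0 in AVP male 1, AVP female 1 and saline male 2. The share of Trp73-205 ranged from 73.5% in AVP male 2 to 89.8% in saline female 2. The internal start lies within an exon of the antisense gene Trp73os, which the authors' strand-aware quantification counts apart.

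These 3 starting regions are shown because each lies directly before the start of coding transcripts, namely those of the ligand, a transcription factor of Cajal-Retzius cells and the receptor of the Cxcl12 signal. Each sequence is the 250 bases before the RefSeq start on GRCm38.p6, read 5′ to 3′ on the strand of the gene. Capitals mark the GC box GGGCGG, on either strand, and the TATA box TATAAA, on either strand. The Reln region is chr5:22344706-22344955, the Trp73 internal region chr4:154097174-154097423 and the Cxcr4 region chr1:128592300-128592549, all on the minus strand.
Reln: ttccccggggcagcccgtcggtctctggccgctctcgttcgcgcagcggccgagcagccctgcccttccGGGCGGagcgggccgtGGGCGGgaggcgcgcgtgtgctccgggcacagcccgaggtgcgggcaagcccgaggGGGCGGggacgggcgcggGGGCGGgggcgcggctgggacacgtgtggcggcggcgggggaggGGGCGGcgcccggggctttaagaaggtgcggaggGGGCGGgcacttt
Trp73, internal start: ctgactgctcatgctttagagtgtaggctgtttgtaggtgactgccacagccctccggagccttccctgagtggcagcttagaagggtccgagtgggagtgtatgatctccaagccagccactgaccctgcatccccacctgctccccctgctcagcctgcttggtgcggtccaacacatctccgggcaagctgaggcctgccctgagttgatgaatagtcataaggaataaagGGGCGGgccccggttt
Cxcr4: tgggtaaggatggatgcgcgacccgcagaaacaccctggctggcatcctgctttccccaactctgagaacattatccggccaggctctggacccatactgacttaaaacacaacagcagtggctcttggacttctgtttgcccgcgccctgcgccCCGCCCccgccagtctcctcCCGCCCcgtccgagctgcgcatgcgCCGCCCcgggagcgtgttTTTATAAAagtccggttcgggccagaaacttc
The Reln region held 6 GC boxes, 37 CG dinucleotides and 80.0% G and C. The Trp73 internal region held 1 GC box, 6 CG dinucleotides and 58.4% G and C, and the Cxcr4 region 3 GC boxes, 19 CG dinucleotides and 61.2%. The TATA letters occurred only in Cxcr4 among these 3, as 2 overlapping matches on opposite strands. Of the 32841 RefSeq regions of this length, 32.8% held a GC box and 12.4% a TATA box, and their median G and C content was 52.4%. RefSeq regions were matched for 7 of the 10 genes, and Lhx5, Calb2 and Ndnf were not among them.

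The levels of the 10 genes spanned from 107.5 TPM for Dab1 to 2.16 TPM for Lhx5, as means over 15 libraries on the per-length scale. Dab1 was followed by Lrp8 at 85.7, Reln at 73.3, Cxcr4 at 37.2, Vldlr at 29.8, Calb2 at 25.5, Nhlh2 at 9.97, Ndnf at 8.71, Trp73 at 4.35 and Lhx5 at 2.16 TPM. The order held in every library for Dab1 over Lrp8, Reln over Cxcr4, Calb2 over Nhlh2, Ndnf over Trp73 and Trp73 over Lhx5. It held in 12 of 15 libraries for Lrp8 over Reln, in 13 for Cxcr4 over Vldlr, in 13 for Vldlr over Calb2 and in 10 for Nhlh2 over Ndnf. The separation of these neighbours was not tested. The adaptor and the receptors varied less between libraries than the other members, with coefficients of variation of 9.43% for Dab1, 12.6% for Vldlr, 16.5% for Cxcr4 and 17.1% for Lrp8. Calb2 varied most, at 77.5%, which became 24.0% without the 2 libraries with olfactory bulb transcripts. All 10 genes passed the low-expression filter of each comparison (1 TPM or more in 50% or more of its libraries).

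**Figure D2:**
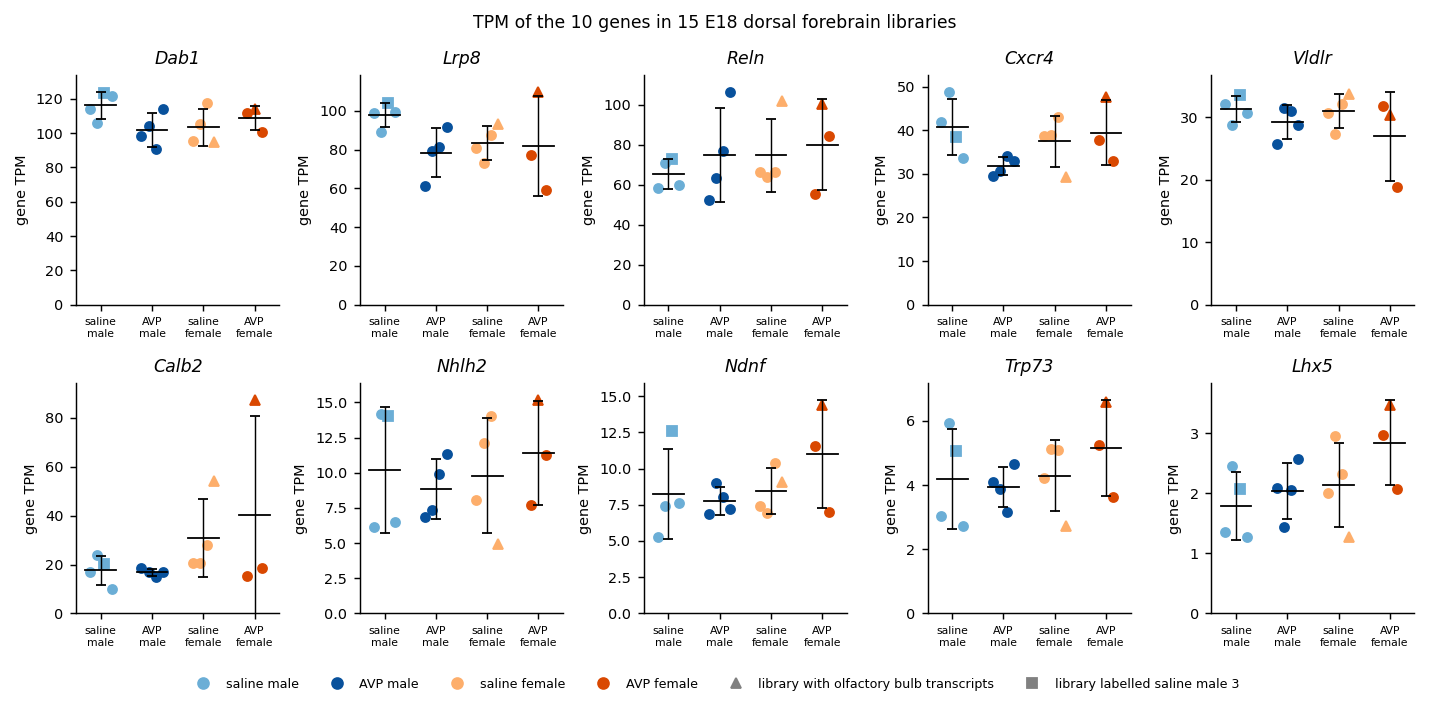
Each panel plots the TPM of 1 gene on a linear axis in saline male, AVP male, saline female and AVP female libraries, with the group mean and SD as black bars, which are cut at 0. Triangles are the 2 libraries with olfactory bulb transcripts, which reach 87.2 and 54.0 TPM of Calb2, and the square is the library labelled saline male 3.

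In AVP males the receptor Lrp8, the chemokine receptor Cxcr4 and the adaptor Dab1 had lower mean TPM than in saline males, but none passed the threshold over all genes. Lrp8 (chr4:107802261-107876840, plus strand) was at 61.5, 79.2, 81.6 and 91.6 TPM in AVP males and at 98.9, 89.1, 104.2 and 99.3 TPM in saline males. The groups overlapped only through the highest AVP and the lowest saline library. The difference was -0.33 on the log2(TPM + 0.5) scale (SE 0.12, limma p = 0.0195, adjusted p = 0.317), and the exact two-sided permutation test gave p = 0.0571, where 0.0286 is the smallest p that 4 against 4 allow. Lrp8-202, which begins inside the gene, held 65.8% of Lrp8 TPM over all libraries.

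Cxcr4 (chr1:128588199-128592293, minus strand) was at 29.5, 30.7, 34.0 and 33.0 TPM in AVP males and at 41.8, 48.8, 38.4 and 33.5 TPM in saline males. AVP libraries lay close together, with an SD of 2.07 TPM against 6.44 in saline, and saline male 4 fell among them. The difference was -0.34 (SE 0.11, limma p = 0.0158, adjusted p = 0.310, exact permutation p = 0.0571). Within the first run of library numbers it was -0.58, and within the second -0.10, with 2 libraries a group in each.

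Dab1 (chr4:103619359-104744844, plus strand) was at 98.6, 104.3, 90.6 and 114.1 TPM in AVP males and at 113.9, 106.2, 123.3 and 121.9 TPM in saline males. AVP male 4 lay above the lowest saline libraries. The difference was -0.19 (SE 0.084, limma p = 0.0478, adjusted p = 0.367, exact permutation p = 0.0857). It was -0.12 within the first run and -0.27 within the second, and that of Lrp8 was -0.43 and -0.23. Without the library labelled saline male 3 the differences were -0.30 for Lrp8, -0.36 for Cxcr4 and -0.16 for Dab1, with adjusted p of 0.612, 0.612 and 0.638.

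These 3 genes have to be read against the whole table. Over 15271 genes tested in males, 1888 were lower and 169 higher at an unadjusted limma p under 0.05, and the median difference was -0.10. With median-of-ratios scaling the median became 0.0032 and the split 761 lower and 1008 higher, and with quantile normalization 766 and 762. Under median-of-ratios scaling Lrp8 stood at -0.22, Cxcr4 at -0.23 and Dab1 at -0.08. Of the 10 genes, 3 had an unadjusted p under 0.05, all lower, beside 13.5% of all genes in either direction and 12.4% of them lower. Without the library labelled saline male 3 only 1 of the 10 did, Cxcr4, beside 7.10% of all genes lower. With either of the other scalings only Lrp8 did. The share of all genes lower was then 4.99% with median-of-ratios scaling and 5.02% with quantile normalization. None of the 10 had an adjusted p under 0.05, beside 1 gene, or 0.00655%, of all tested. None had groups that did not overlap, beside 7.27% of all genes. The median of the 10 differences was -0.062, and 0.066 without the library labelled saline male 3.

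The genes that mark Cajal-Retzius cells had smaller differences in males than their spread. Trp73 was at 4.11, 3.87, 3.16 and 4.66 TPM in AVP males and at 3.05, 5.92, 5.05 and 2.72 TPM in saline males. AVP libraries lay within the saline range, and the difference was -0.03 (95% interval -0.57 to 0.52). Lhx5 (chr5:120431699-120441223, plus strand) was at 2.08, 1.44, 2.06 and 2.57 TPM in AVP males and at 1.36, 2.45, 2.08 and 1.27 TPM in saline males, a difference of 0.16 (interval -0.35 to 0.68). Reln was at 52.2, 63.5, 76.9 and 106.6 TPM in AVP males and at 58.5, 70.8, 73.1 and 59.8 TPM in saline males. AVP males held both the lowest and the highest Reln value, and the difference of 0.15 (interval -0.30 to 0.59) was -0.16 within the first run of library numbers and 0.45 within the second. With protein-coding transcripts only, it was 0.21 (adjusted p = 0.692 from limma).

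Among the other markers in males, Calb2 (chr8:110137502-110168210, minus strand) ranged from 14.8 to 18.5 TPM with AVP and from 9.89 to 23.8 TPM with saline. Ndnf (chr6:65671590-65712326, plus strand), which encodes a secreted factor of marginal zone neurons, ranged from 6.88 to 9.0 and from 5.26 to 12.6 TPM. Nhlh2 (chr3:102010076-102015492, plus strand), a basic helix-loop-helix transcription factor, ranged from 6.87 to 11.3 and from 6.14 to 14.2 TPM. The receptor Vldlr (chr19:27216484-27254231, plus strand) ranged from 25.7 to 31.5 and from 28.8 to 33.6 TPM. In each of these 4 genes the groups overlapped, and the differences were -0.01, -0.02, -0.12 and -0.10, in this order.

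**Figure D3:**
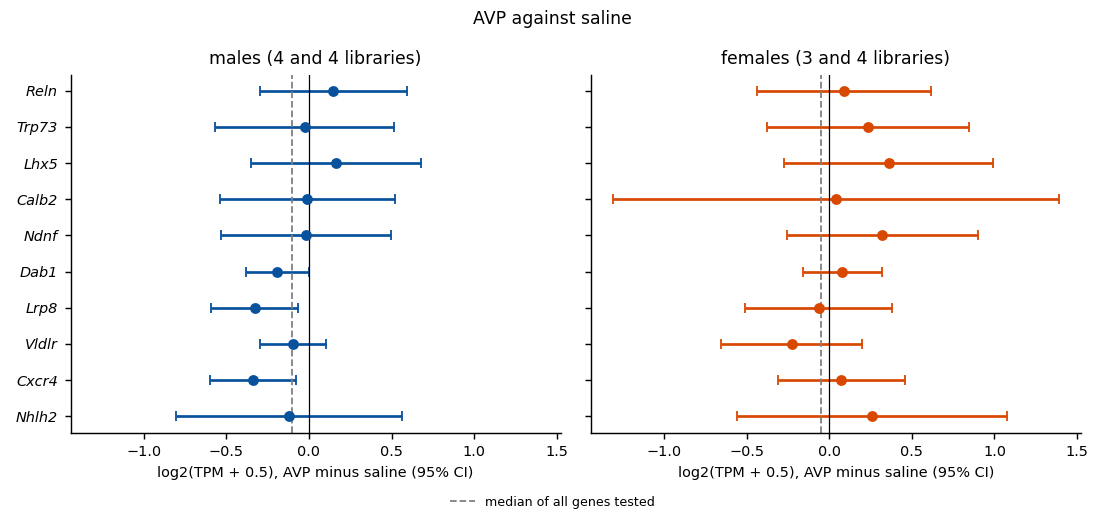
Points give the difference between AVP and saline on the log2(TPM + 0.5) scale for each of the 10 genes in males and females, with 95% intervals from limma as bars and the median of all genes as a dashed line. In males the intervals of Lrp8, Cxcr4 and Dab1 lie below 0, where the median of all genes is -0.10, and in females all 10 intervals cross 0.

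In females the log2 difference was above 0 in 8 of the 10 genes and below 0 in 2, beside 36.9% of all genes above 0, and none passed a threshold. Without the 2 libraries with olfactory bulb transcripts it was above 0 in 4 and below 0 in 6, beside 24.4% of all genes above 0. Trp73 was at 5.24, 6.60 and 3.63 TPM in AVP females and at 4.24, 5.14, 5.09 and 2.74 TPM in saline females, a difference of 0.24 (interval -0.38 to 0.85). Lhx5 was at 2.98, 3.48 and 2.08 TPM against 2.01, 2.96, 2.32 and 1.27 TPM, a difference of 0.36 (interval -0.27 to 0.99, adjusted p = 0.999 from limma). The highest value of both genes came from AVP female 2 and the lowest female value of both from saline female 4, the libraries with olfactory bulb transcripts. Without both libraries the difference was -0.12 for Trp73 and 0.045 for Lhx5.

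Reln was at 55.5, 100.3 and 84.5 TPM in AVP females and at 66.1, 63.8, 66.5 and 102.1 TPM in saline females. Among saline females, saline female 4 stood far above the other 3 libraries. Calb2 was at 15.2, 87.2 and 18.6 TPM in AVP females and at 20.8, 20.6, 28.2 and 54.0 TPM in saline females, with the highest value of each group in the library with olfactory bulb transcripts. The difference was 0.04 (interval -1.31 to 1.39) in all female libraries and -0.44 without these 2, where AVP females averaged 16.9 TPM (n = 2) and saline females 23.2 ± 4.31 TPM (SD, n = 3).

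The receptors and the adaptor did not separate in females either. Lrp8 was at 77.2, 110.0 and 59.1 TPM in AVP females and at 80.7, 72.9, 87.4 and 93.2 TPM in saline females. AVP female 3 held the lowest Lrp8 and, at 18.8 TPM, the lowest Vldlr of all 15 libraries. Without the 2 libraries with olfactory bulb transcripts, AVP females averaged 68.2 TPM of Lrp8 (n = 2) and saline females 80.3 ± 7.26 TPM (SD, n = 3). In the same libraries Vldlr averaged 25.2 against 30.0 ± 2.43 TPM and Dab1 106.3 against 106.2 ± 11.1 TPM. Cxcr4 was at 37.7, 47.5 and 33.0 TPM against 38.6, 38.9, 43.0 and 29.2 TPM, a difference of 0.07, which became -0.18 without the 2 libraries with olfactory bulb transcripts. Dab1 was at 111.7, 114.2 and 100.9 TPM against 95.5, 105.3, 117.7 and 94.8 TPM, a difference of 0.08 (interval -0.16 to 0.32). Over 15132 genes tested in females by limma, 0 had an adjusted p under 0.05, that is 0%, and 683, or 4.51%, had an unadjusted p under 0.05. None of the 10 genes had an unadjusted p under 0.05, and none had groups that did not overlap, beside 5.55% of all genes.

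The effect of AVP was then compared between the sexes by an interaction term. The largest values among the 10 genes were those of Cxcr4, at 0.41 higher in females than in males (SE 0.21, adjusted p = 0.896 from limma), of Nhlh2, at 0.38, and of Ndnf, at 0.34. That of Ndnf was 0.056 when its coding transcript alone was counted, without the retained-intron transcript Ndnf-202. Dab1 stood at 0.27 (SE 0.13, adjusted p = 0.896 from limma), so a difference between the sexes was not shown for any of them. None of the 10 had an unadjusted p under 0.05, beside 4.14% of 15078 genes, and 0% of genes passed the adjusted threshold. Without the 2 libraries with olfactory bulb transcripts the interaction was 0.16 for Cxcr4, 0.20 for Dab1 and -0.12 for Nhlh2. Without the library labelled saline male 3, again none of the 10 had an unadjusted p under 0.05, beside 2.9% of all genes.

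Over both sexes, with sex as a term, Lrp8 was lower with AVP by a difference of -0.21 (SE 0.12, adjusted p = 0.505 from limma) and Lhx5 higher by 0.25 (SE 0.17, adjusted p = 0.560). None of the 10 had an unadjusted p under 0.05, beside 10.4% of 15078 genes, and 0% of genes passed the adjusted threshold. Without the 2 libraries with olfactory bulb transcripts Lrp8 and Cxcr4 had unadjusted p under 0.05, at -0.30 and -0.28, with adjusted p of 0.122 and 0.113, beside 20.1% of all genes lower, and Lhx5 was at 0.12. Among saline libraries, females compared with males had lower Lrp8, at 83.5 ± 8.77 against 97.9 ± 6.32 TPM (SD, n = 4 each). The difference was -0.23 (SE 0.085, adjusted p = 0.928 from limma). Lrp8 was the 1 gene of the 10 with an unadjusted p under 0.05, beside 4.15% of 15385 genes, and 0.00650% of genes passed the adjusted threshold. Calb2 was 0.73 higher in saline females (adjusted p = 0.928) and, without saline female 4 and the library labelled saline male 3, the values were -0.25 for Lrp8 and 0.51 for Calb2. With both left out Lrp8 kept an unadjusted p under 0.05, beside 4.44% of all genes. With only the library labelled saline male 3 left out, none of the 10 did, beside 2.54% of all genes.

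The share of each gene's TPM held by its main transcript was compared between AVP and saline by exact permutation tests, and no difference passed 0.05 (p from 0.0857 to 1 in the 8 genes in which a second transcript held 5% or more, which leaves out Lhx5 and Calb2). Cxcr4-201, the longer transcript, held 87.6% ± 5.61 of Cxcr4 TPM in AVP males and 77.6% ± 5.52 in saline males (SD, n = 4 each, exact permutation p = 0.0857). In females the shares stood the other way, at 77.2% ± 8.36 (n = 3) and 84.5% ± 4.19 (n = 4, exact permutation p = 0.229). Ndnf-201, the coding transcript, held 62.2% of Ndnf TPM over all libraries and 53.6% ± 10.6 in AVP females against 64.5% ± 5.71 in saline females (exact permutation p = 0.171). Counting coding transcripts only, the share of Reln-207 was 99.4% ± 0.270 in AVP males and 99.8% ± 0.0794 in saline males, and these groups did not overlap, with the exact permutation test at p = 0.0286, the smallest that 4 against 4 allow. The rest of this coding TPM was Reln-201, at a mean of 0.102 TPM and no more than 0.416 TPM in any library, so the difference lies in values close to 0. The p-values of the shares were not adjusted for the number of tests. Dab1-203, which begins inside the annotated gene, held 79.5% of Dab1 TPM, and Vldlr-207 held 66.9% of Vldlr TPM.

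Trp73, Lhx5 and Nhlh2 varied together from library to library. Across 15 libraries, on the log2(TPM + 0.5) scale, Trp73 and Lhx5 had Pearson r = 0.87 (permutation p = 2e-05, adjusted p = 0.0009) and Spearman rho = 0.89 (permutation p = 3e-05, adjusted p = 0.00135). Without AVP female 2 and saline male 4, the libraries farthest from the median of Trp73, r was 0.80, and within the runs of library numbers it was 0.87 and 0.90. Trp73 and Nhlh2 had r = 0.78 (permutation p = 0.00098, adjusted p = 0.0161) and rho = 0.80 (permutation p = 0.0006, adjusted p = 0.0135), with r = 0.72 without the same libraries and 0.84 and 0.89 within the runs. Lhx5 and Nhlh2 had r = 0.74 (permutation p = 0.00197, adjusted p = 0.0222) and rho = 0.72 (adjusted permutation p = 0.0504), with r = 0.61 without AVP female 2 and saline female 4 and 0.63 and 0.88 within the runs.

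Of the 45 pairs among the 10 genes, 4 had an adjusted p under 0.05 for r and 2 for both r and rho, and the median r was 0.33. The other pair was Lrp8 and Vldlr, with r = 0.74 (adjusted permutation p = 0.0161) and rho = 0.52 (adjusted permutation p = 0.281). Without AVP female 3 and AVP male 1, the libraries farthest from the median of Lrp8, its r was 0.37, so its strength depended on these libraries. Within the runs r was 0.74 and 0.84, with AVP male 1 in the first and AVP female 3 in the second. With median-of-ratios scaling it was 0.48. A relation of Reln with Trp73 or Lhx5 was not shown. Its r was 0.07 with Trp73 (permutation p = 0.790, adjusted p = 0.846, rho 0.07) and 0.17 with Lhx5 (permutation p = 0.549, adjusted p = 0.711, rho 0.10), and for Trp73 r was 0.33 without AVP male 4 and saline female 4 and 0.37 and 0.24 within the runs. With Nhlh2 the r of Reln was 0.29 (permutation p = 0.289, adjusted p = 0.4995) and rho 0.43 (adjusted permutation p = 0.347), with r = 0.71 without AVP male 4 and saline female 4, 0.57 without the libraries with olfactory bulb transcripts and 0.70 and -0.02 within the runs. Dab1 and Lrp8 had r = 0.55 (permutation p = 0.0323, adjusted p = 0.182), which became 0.04 with median-of-ratios scaling. For Calb2 the 2 libraries with olfactory bulb transcripts form a cluster of their own, and in the other 13 its r with Reln was 0.12. TPM within a library share 1 total, so the genes of a pair are not independent of the rest of the table.

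**Figure D4:**
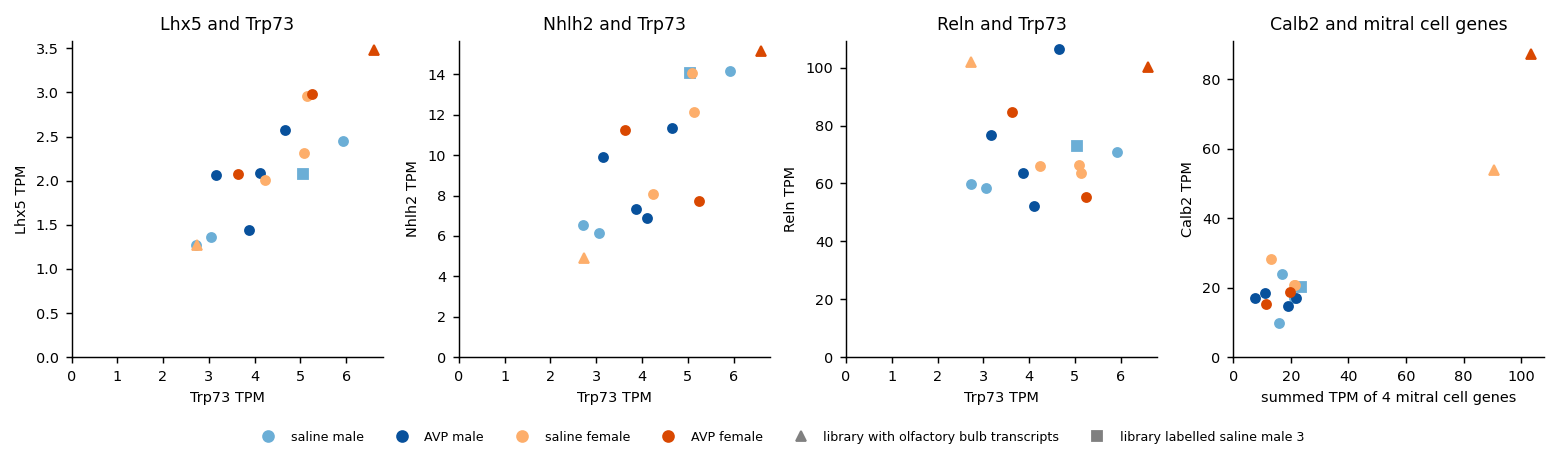
Each point is 1 of 15 libraries, coloured by group, with TPM on both axes. Lhx5 and Nhlh2 increase with Trp73, Reln at 52.2 to 106.6 TPM does not, and Calb2 is highest in the 2 libraries with a summed 103.3 and 90.7 TPM of mitral cell genes.

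The genes whose pattern was most like that of each member were found by Pearson r after subtraction of group means, among 15077 others and over 15 libraries. For Trp73 they were Sh3rf1 (r = 0.92), Tgfb2, Ifi203, Slc35c2 and Gna12 (r = 0.90), and Lhx5 ranked as number 13. For Lhx5 they were Palld (r = 0.93), Epc2, Trp73 at rank 3, 1300014J16Rik and Gm27199 (r = 0.87). For Reln they were Mtrex (r = 0.95), Gm17096, Wnk1, Rbbp6 and Kin (r = 0.93). Nhlh2 was closest to Lhx1os (r = 0.95), Tac2 and Itgb1, Calb2 to Igf1 (r = 0.94), Epb41l4a and Sall1, and Ndnf to Alcam (r = 0.95), Arid4a and Emc2. Without the 2 libraries with olfactory bulb transcripts, r of Calb2 fell to 0.78 with Igf1 and 0.47 with Sall1. Cxcr4 was closest to Mgme1 (r = 0.92), Nsmce3 and Usp25, Lrp8 to Clasp1 (r = 0.97), Zfp866 and Arhgap21, Vldlr to Fnip2 (r = 0.97), Aldh5a1 and Slitrk5, and Dab1 to Erich1 (r = 0.88), Mrps31 and Mtf1. Cxcr4 had r = 0.76 with Trp73 and ranked as number 239 for it, so values of this size were common and the ranks are a description.

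Other genes of the pathway were taken from lists of reelin proteases and partners outside the cell, of reelin signalling inside the cell, of the Cxcl12 axis, of further Cajal-Retzius markers and of the cortical hem. Of their 61 genes, 50 passed the filter in males and in females, and none of these had an adjusted p under 0.05 from limma. In males 7 had an unadjusted p under 0.05, all lower, beside 12.4% of all genes lower. With saline male 3 left out these were 3, Furin, Adamts3 and Rapgef1, beside 7.10%. Among the 7 with all libraries was Furin, a proprotein convertase, at 15.1 ± 2.21 against 19.8 ± 2.14 TPM (difference -0.38). Adamts3, the main protease that cleaves and inactivates reelin, was at 15.7 ± 2.30 against 19.4 ± 1.80 TPM (difference -0.31), and Clu, a reelin receptor ligand, at 37.7 ± 4.55 against 47.5 ± 7.76 TPM (SD, n = 4 each). Inside the cell, the rest of the 7 were Rapgef1 (the exchange factor for Rap1), at 60.3 ± 3.96 against 71.1 ± 2.72 TPM, Pik3r2, Itga3 and Limk1, with differences from -0.20 to -0.30. The groups did not overlap in Rapgef1, beside 7.27% of all genes in males, but Rapgef1 had been picked by its p in the same libraries. The medians were -0.10 for the 12 genes outside the cell and -0.084 for the 25 inside it, beside -0.10 for all genes.

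In females 4 of the 50 pathway genes had an unadjusted p under 0.05, all higher with AVP, beside 4.51% of all genes. Cxcl12, the ligand of Cxcr4, was at 69.6 ± 4.51 TPM with AVP (n = 3) and 45.7 ± 9.67 TPM with saline (n = 4), a difference of 0.63 (SE 0.18, adjusted p = 0.999 from limma). Bmp4, a hem and meningeal morphogen, was at 5.67 ± 2.62 against 2.18 ± 0.209 TPM (difference 1.12), Selenop, a ligand of Apoer2, at 92.6 ± 29.5 against 59.3 ± 6.71 TPM (difference 0.60), and Itgb1, an integrin subunit, at 69.8 ± 6.52 against 56.9 ± 7.60 TPM (difference 0.30). Without the 2 libraries with olfactory bulb transcripts the differences were 0.52 for Cxcl12, 1.39 for Bmp4, 0.43 for Selenop and 0.15 for Itgb1, and 4 pathway genes were higher and 2 lower at an unadjusted p under 0.05, beside 6.90% of all genes. With all libraries the groups did not overlap in these 4 genes, beside 5.55% of all genes. That is no added support, because the p of the same libraries had picked them. Markers of meningeal fibroblasts moved with them. The summed TPM of 12 such markers, none of which was under 1 TPM in every library, was 210.9 to 304.7 in AVP females and 125.9 to 154.0 in saline females, and 9 of the 11 tested had an unadjusted p under 0.05, all higher. Summed endothelial markers were 237.8 to 271.0 TPM in AVP females and 146.2 to 222.7 in saline females, and 4 of 9 had an unadjusted p under 0.05, all higher. Their part in these values was not tested. With another method, sleuth, the study listed Selenop and some meningeal fibroblast markers as changed in females at a false discovery rate under 0.05.

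**Figure D5:**
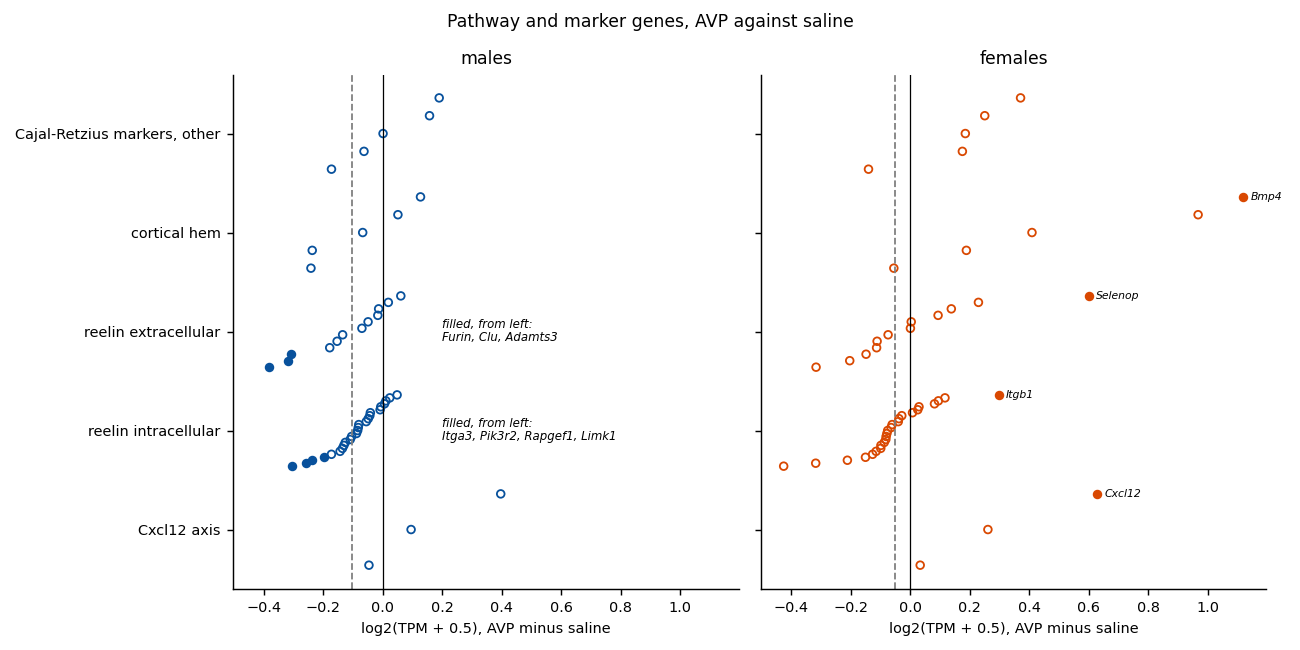
Points give the difference between AVP and saline on the log2(TPM + 0.5) scale for the tested genes of 5 lists in males and females, in order of size within a list, filled and named where the unadjusted limma p is under 0.05, with the median of all genes as a dashed line. In males the 7 filled genes lie left of 0, and in females the 4 filled genes lie right of it, up to 1.12 for Bmp4.

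The further Cajal-Retzius markers were low and did not separate the groups. Cacna2d2 at 15.4 TPM and Tmem163 at 8.93 TPM led the list, Ebf2 was under 1 TPM in every library, and 5 of 8 genes passed the filter, with medians of 0.0014 in males and 0.19 in females. Of 11 hem genes, 5 passed, led by Rspo3 at 9.78 and Rspo2 at 8.54 TPM, while Wnt3a, Lmx1a and Gdf7 were under 1 TPM in every library. Summed hem markers were 26.8 to 36.7 TPM in AVP males, 25.6 to 46.2 in saline males, 38.0 to 49.99 in AVP females and 22.2 to 34.4 in saline females, so that the female groups did not overlap. Summed choroid plexus markers, of tissue that adjoins the hem, were 29.9 to 2299 TPM in AVP females and 10.3 to 968.5 in saline females. Ttr alone reached 2197 TPM in AVP female 1, where the sum was 2299. Of these markers, 7 of 7 tested had a difference above 0 (median 1.45), beside 36.9% of all genes. An unadjusted limma p under 0.05 was reached by 2 of the 7, beside 4.51% of all genes. The part of choroid plexus in the hem values was not tested.

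Trp73 was correlated with several lists. With the hem list it had r = 0.84 (permutation p = 8e-05, adjusted p = 0.006) and rho = 0.76 (adjusted permutation p = 0.0600) over 15 libraries, r = 0.88 without AVP female 2 and saline male 4 and 0.95 and 0.79 within the runs. Its r was 0.78 with radial glia (adjusted permutation p = 0.018), 0.77 with thalamus (adjusted permutation p = 0.019) and 0.76 with microglia (adjusted permutation p = 0.019). Without AVP female 2 and saline male 4 these were 0.66, 0.61 and 0.85. The hem list thus had the highest r in both settings, but the relation was not particular to it. Of 150 relations between the 10 genes and 15 marker lists, 10 had an adjusted p under 0.05 for r and 2 for both r and rho. Both belonged to Nhlh2, with the thalamus list (r = 0.83, rho = 0.91, adjusted permutation p = 0.006 and 0.0015) and with the radial glia list (r = 0.70, rho = 0.81, adjusted permutation p = 0.0462 and 0.0308). Without saline female 4 and saline male 1 the values of r were 0.87 and 0.74, and within the runs they were 0.84 and 0.84 for thalamus and 0.96 and 0.60 for radial glia. Slc17a6 at 18.9 TPM led the thalamus list, of which Gbx2 was under 1 TPM in every library, and Fabp7 at 1863 TPM led the radial glia list. Cxcr4, which microglia, endothelium and migrating interneurons also express, was correlated with the hippocampus list (r = 0.77, adjusted permutation p = 0.019, rho = 0.72, adjusted permutation p = 0.0767), with r = 0.75 without saline male 2 and saline female 4 and 0.76 and 0.86 within the runs. Its r with the thalamus list was 0.74 (adjusted permutation p = 0.0276). Summed hippocampus markers, led by Zbtb20 at 6.72 TPM, were 12.5 to 18.1 TPM in AVP males and 14.8 to 24.5 TPM in saline males, and their part in the Cxcr4 values was not tested.

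Markers of the cells that could carry Lrp8, Dab1 and Cxcr4 are given beside the male difference. Summed markers of cortical plate neurons were 1437 to 1791 TPM in AVP males and 1512 to 1887 in saline males, those of interneurons 728.1 to 1021 and 799.7 to 907.5, those of microglia 86.7 to 114.1 and 82.5 to 147.2, and those of endothelium 183.7 to 212.9 and 160.2 to 288.8. Neurod6 at 579.5, Npy at 367.2 and Cldn5 at 79.9 TPM led the neuron, interneuron and endothelium lists, and in each of the 4 lists the groups overlapped. Of the 12 cortical plate genes, 2 had an unadjusted p under 0.05 in males, both lower, beside 12.4% of all genes lower, with a median of -0.17 beside -0.10 for all genes. With saline male 3 left out it was 1 of the 12. Choroid plexus transcripts, led by Ttr, varied from 10.3 to 2299 TPM between libraries. The part of these cells in the values of the 10 genes was not tested.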

How the data were processed

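Stranded polyadenylated RNA libraries of E18 dorsal forebrain were sequenced as paired-end reads. The authors trimmed reads with Trim Galore 0.4.1, quantified transcripts with kallisto 0.43.1 against GENCODE M16 on GRCm38 with strand and bias options, and deposited 1 table of TPM for 15 libraries. The TPM of a library sum to 1000000, so a rise of abundant transcripts lowers all others, and the table gives no read depth for a library (the study's methods give averages over samples). The precision of a value is shown only by the spread between libraries.

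Here TPM of 133849 transcripts were summed to 53337 genes by the GENCODE M21 annotation, and 404 transcripts without a gene, 0.154% to 0.199% of TPM, were left out. Genes that reached 1 TPM in 50% or more of the libraries compared were tested on log2(TPM + 0.5) with limma 3.58.1 (trend, R 4.3.3), with Benjamini-Hochberg adjustment over all genes tested and a threshold of 0.05. The pseudocount makes the differences of low genes too small. Comparisons were AVP against saline in each sex, their interaction, both sexes together, and female against male in saline. Single genes and transcript shares were also tested by exact two-sided permutation, and correlations by 100000 permutations, whose smallest p is 1e-05, adjusted over 45 pairs or 150 relations. The limma code was tested on simulated data.

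The 10 genes and all gene lists were chosen with earlier results of these data known. Named genes are the 10 members, list genes with an unadjusted p under 0.05, the 2 most abundant genes of a list, undetected list genes, and the 5 or 3 genes most correlated with a member. The rule also names 1 gene that is not reported here. Libraries were grouped by the treatment and gender labels, and replicate numbers follow accession order. Alternatives were other filters, pseudocounts and scalings, limma without the trend, coding transcripts only, the run of library numbers as a covariate, and leaving out libraries. Those that leave out the libraries with olfactory bulb transcripts, or saline male 3 in the gene lists, were chosen after seeing the data.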

Additional observations from a re-analysis of the deposited data

Results flagged for a closer look

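In 4 of 90 groups of 4 libraries, 1 library lay farther from the rest than Dixon's 95% limit allows, and about 4.5 such groups are given by chance, or 1 in 20. Reln was at 102.1 TPM in saline female 4 and at 63.8 to 66.5 TPM in the other saline females, and this library also held 60.1 TPM of Cdhr1. Reln-207, the full-length transcript, made up 30.5% of Reln TPM in saline female 3 and 23.3% to 24.1% in the other saline females. Lrp8-202 made up 58.8% of Lrp8 TPM in saline male 1 and 65.0% to 65.6% in the other saline males. Lrp8-203 made up 15.6% of Lrp8 TPM in saline female 3 and 12.3% to 12.7% in the other saline females.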

How the results depend on the processing

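None of the 564 values of the 10 genes under the alternatives had an adjusted limma p under 0.05, and the smallest was 0.0750. The cause of the changes below was not tested. In males, median-of-ratios scaling turned Trp73 to 0.075, Calb2 to 0.10, Ndnf to 0.088 and Vldlr to 0.012, and quantile normalization turned them to 0.13, 0.13, 0.13 and 0.034 and Nhlh2 to 0.0096. In females, Lrp8 became 0.0064 with quantile normalization and Calb2 -0.14 with the run of library numbers as a covariate, and without both libraries with olfactory bulb transcripts Trp73 was -0.12, Calb2 -0.44, Cxcr4 -0.18 and Nhlh2 -0.24, with the interaction of Nhlh2 at -0.12. The share of Lrp8-202 in females became 0.15 points higher with AVP when coding transcripts alone were counted, and r of Reln and Trp73 became -0.057 with median-of-ratios scaling.

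Over all genes, the 1 gene called in males became 0 with at least 5 TPM in every library, a pseudocount of 1, the run as a covariate, coding transcripts alone or 1 fit of all 15 libraries, and 2 without the limma trend. The 1 gene called between the sexes in saline became 0 without a filter, with at least 5 TPM in every library, with a pseudocount of 1 or with coding transcripts alone, and 14 without saline female 4 and saline male 3. Leaving out each library in turn gave 0 to 6 genes in males, 0 to 6 in females, 0 to 1 for the interaction, 0 to 1 over both sexes and 0 to 4 between the sexes. The values beside the counts of 0 were 683 genes at an unadjusted p under 0.05 in females, 624 for the interaction and 1564 over both sexes.

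Leaving out each library in turn, the male differences ranged from -0.20 to 0.20 for Ndnf, -0.19 to 0.15 for Trp73, -0.26 to 0.15 for Calb2, -0.32 to 0.062 for Nhlh2 and -0.041 to 0.30 for Reln. The female ones ranged from -0.74 to 0.50 for Calb2, -0.095 to 0.33 for Reln, -0.070 to 0.19 for Cxcr4, -0.30 to 0.15 for Lrp8, -0.36 to 0.0087 for Vldlr and -0.018 to 0.50 for Nhlh2. The scaling also moved the split of genes at an unadjusted p under 0.05 over both sexes, from 1461 lower and 103 higher to 674 and 438 with median-of-ratios scaling and 579 and 617 with quantile normalization, and that of the interaction from 244 and 380 to 561 and 307 and to 455 and 256. Between the sexes in saline it moved from 430 and 209 to 258 and 499 and to 251 and 424. No paired analysis was possible because the labels give no shared replicate numbers.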
